A study of Mus musculus with 7 samples.

Results

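The genes of the core autophagy machinery and its cargo receptors were followed in sorted β-cells with and without Raptor, the defining subunit of mTOR complex 1 (mTORC1). The set held every gene whose symbol begins with Atg and a number, Ulk1 to Ulk3, Wipi1 and Wipi2, the Gabarap and Map1lc3 genes, and 11 further genes named one by one: Becn1, Uvrag, Pik3c3, Pik3r4, Rb1cc1, Ambra1, Sqstm1, Nbr1, Optn, Calcoco2 and Wdfy3. On the array, 38 genes of this set were measured under a name, each by 1 of the 22198 transcript clusters (the probe groups that stand for 1 gene). Optn was not analysed here. A gene entered the set by its name and not by a measured value, but the set was chosen with earlier results of these data known.

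Expression was measured on Affymetrix Clariom S mouse arrays, 3 for wild-type (WT) and 4 for Raptor knockout (KO) β-cells, all from mice aged 2 weeks. The labels give the strain as C57BL/6, while the methods describe the RIP-Cre line as mixed. KO mice were Raptor-/- in cells expressing RIP-Cre, in which the rat insulin promoter drives expression of Cre recombinase, and carried the Rosa26GFP reporter that turns such cells green. WT mice were Raptor+/+ littermates that carried RIP-Cre and Rosa26GFP as well, so that Cre and reporter were common to both groups. Green islet cells were sorted by flow cytometry, and each array received RNA pooled from several animals of 1 genotype. Signals are given on the log2 scale, quantile normalized over the 7 arrays. A difference is the mean log2 signal of KO minus that of WT, and a difference of 1 is a doubling.

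Autophagy encloses cytoplasm in a double membrane, the autophagosome, and delivers it to the lysosome. The ULK kinase complex starts the process, a class III PI3-kinase complex marks the membrane, ATG9 vesicles and lipid transfer proteins feed it, and 2 ubiquitin-like conjugation systems attach proteins of the ATG8 family (the LC3 and GABARAP proteins) to its lipids. Receptors such as p62, the product of Sqstm1, tie cargo to the ATG8 proteins. When nutrients are plentiful mTORC1 holds autophagy back by phosphorylating ULK1 and ATG13, and it keeps the transcription factor TFEB out of the nucleus. TFEB and its relatives act on lysosomal and autophagy genes through DNA sites built around the letters CACGTG. In β-cells autophagy removes worn mitochondria and excess insulin granules, and p62 protein is known to build up when the pathway is blocked. Arrays measure RNA and carry no information on these phosphorylation or turnover steps.

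The sequence CACGTG was looked for in the promoters of the members because the TFEB family links mTORC1 to autophagy genes at the level of transcription. RefSeq promoters of assembly GRCm38.p6, each 300 bases long (250 before the start of transcription and 50 after it), were found for 30 of the 38 genes. The letters, which read the same on both strands, occurred in 4 of these 30 (13.3%), against 8.09% of all 27025 genes with a promoter. The 5 matches lay in Atg3 (2 matches), Atg5, Atg7 and Atg14. Each is shown on the strand of its gene with 10 bases on either side, in the order Atg14 (chr14:47568420-47568445, minus strand), the first and the second match of Atg3 (chr16:45158725-45158750 and chr16:45158748-45158773, plus strand), Atg5 (chr10:44268315-44268340, plus strand) and Atg7 (chr6:114670954-114670979, plus strand), with the 6 letters searched for in capitals.
Atg14: aacaaaatccCACGTGactggccctg
Atg3, first match: ctccttttgtCACGTGtcctgggaga
Atg3, second match: agagtcgagtCACGTGaggccttagg
Atg5: gagcgcttgcCACGTGgtcttggtga
Atg7: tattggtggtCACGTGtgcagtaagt
None of these 4 genes differed between KO and WT at an unadjusted p of 0.05 over all arrays. Their differences were 0.49 for Atg14, 0.09 for Atg3, -0.07 for Atg5 and -0.83 for Atg7. A match describes the letters in these windows and is no evidence that a factor binds there.

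Of the whole array, 0 transcript clusters (0%) passed an adjusted p of 0.05 with limma, where 484 (2.18%) had an unadjusted p below 0.05, 225 of them higher in KO (1.01%) and 259 lower (1.17%). By the methods' t-test 534 passed unadjusted and 0 adjusted. Rptor did not check the labels, since where its probes lie relative to the deleted part is not stated. WT replicates 1 to 3 gave 5.98, 5.26 and 6.08 for it, and KO replicates 1 to 4 gave 5.99, 5.96, 4.40 and 8.54. The 3 arrays that stood apart were WT replicate 3 and KO replicates 3 and 4. Their median correlations with the other arrays were 0.933, 0.937 and 0.924, against 0.954 to 0.961 for the rest. The acinar marker score, the mean log2 signal of 15 of 17 listed genes, was 11.47, 14.79 and 7.40 in WT and 9.52, 13.00, 9.42 and 15.78 in KO, in order of replicate number. A mesenchymal score over 6 of 7 listed genes was 5.09, 5.36 and 6.72 in WT and 4.83, 5.33, 5.63 and 6.59 in KO. It was thus highest on WT replicate 3 and KO replicate 4. The Y-linked score was low on WT replicate 3 (4.42) and KO replicate 4 (4.52) and lay between 7.49 and 8.89 elsewhere, although the methods state that all animals were male. Among defining β-cell genes Ins2 was at the top of the scale on all 7 arrays (19.91), and so was the glucagon gene Gcg, while Mafa was dim (3.44 to 3.80). The mean over 9 β-cell genes ran from 14.62 to 14.99 in WT and from 13.58 (KO replicate 4) to 14.90 in KO, and 2 of the 9 had an unadjusted p below 0.05 in limma, Slc2a2 (-1.94) and Slc30a8 (-0.96). The parts that other cells or array quality play in the results below were not tested unless a value is given.

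As a set, the autophagy genes lay no further to one side in KO than the array did. The mean of 19 members was above WT and that of 19 was below (50% below, against 49.6% of all transcript clusters), and the median difference was 0.03 (0.00 over all). Only Calcoco2 had an unadjusted p below 0.05, 1 of 38 where 1.01% of all transcript clusters passed on the higher side, and no member passed on the lower side. Calcoco2 was also the only member whose KO values did not overlap those of WT, against 3.93% of all transcript clusters (872). In bulk RNA, fewer cells of a type and less RNA per cell cannot be told apart.

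The range was wide. The lowest difference was -1.30 (Uvrag) and the highest 1.11 (Atg16l2), and 10 members differed by more than 1.5-fold, yet the p of these was above 0.05 for all but Calcoco2. The members varied more between arrays of 1 group than most transcript clusters did: the median within-group SD was 0.646 against 0.433 over all, and 31 of the 38 lay above that. Over the 68 neighbouring genes described below the median SD was 0.612, so this spread was not particular to the members. Of the members, 33 were not below the median of mean signal over all transcript clusters. The 95% interval of a member's difference accordingly reached a median of 1.021 to either side. For 10 members (Atg10, Atg2a, Atg5, Atg9b, Becn1, Gabarapl2, Rb1cc1, Sqstm1, Ulk3 and Wipi1) it stayed within a doubling in either direction, so that for these a larger change in mean signal was outside the interval. For each of the other members the interval reached past a doubling or a halving. Of the 10, Atg2a, Atg9b and Ulk3 were dim, at percentiles 6.2, 9.5 and 33.6 of mean signal. Signal over background was not known for them, so their narrow intervals hold for the signal and not for the RNA.

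**Figure D1:**
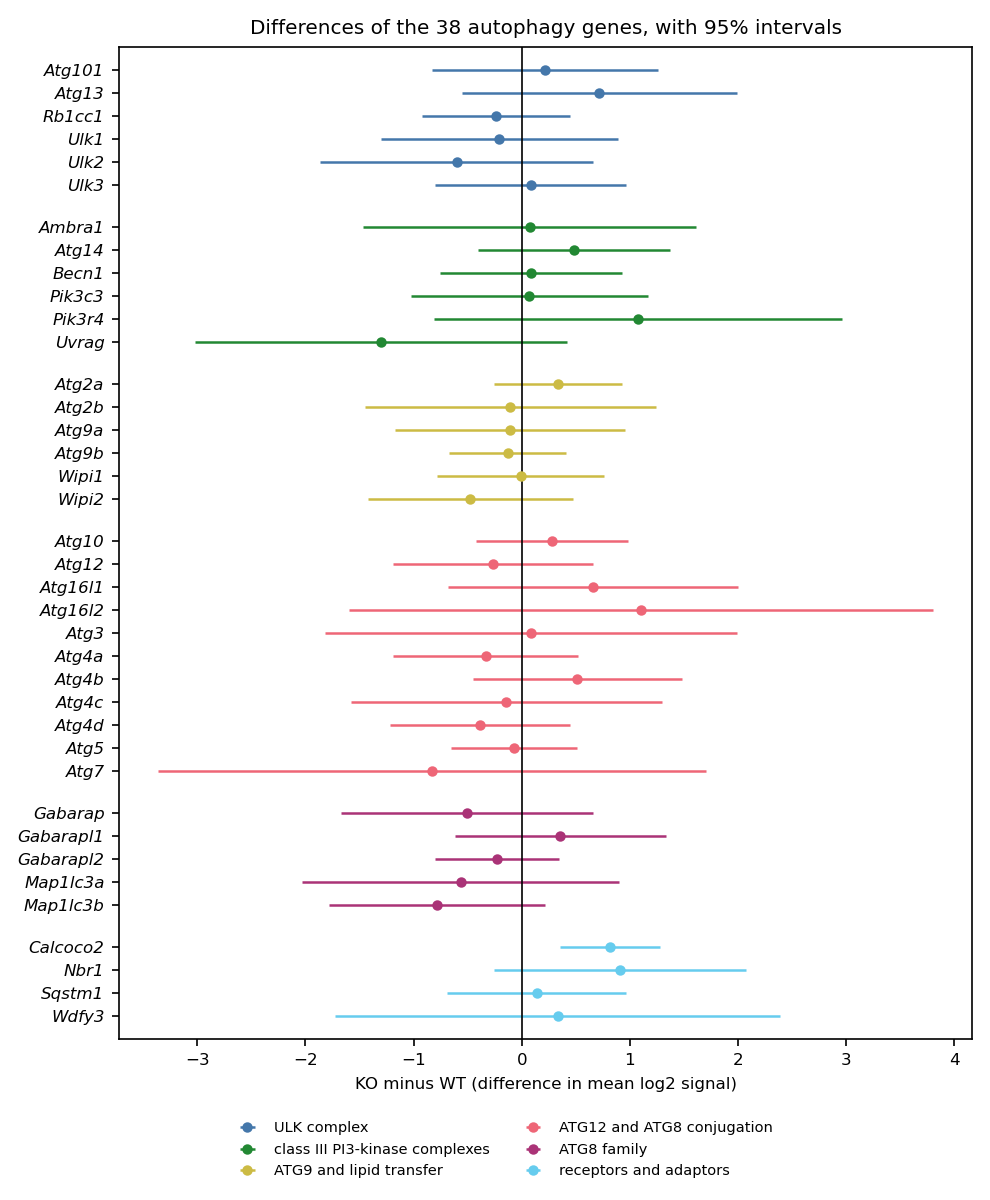
KO minus WT difference in mean log2 signal (x axis) of the 38 autophagy genes, grouped and coloured by role, with 95% intervals from limma as bars. The interval of Calcoco2 alone lies to one side of 0, and those of Atg7 and Atg16l2 are the widest.

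The arrays that stood apart held most of the low values. Of the 38 members 30 (78.9%) had their lowest signal on one of the 3, which was so for 56.2% of all transcript clusters. Only 15 (39.5%) had their highest signal there, against 60.5% of all. The mean log2 signal of the 38 genes was 8.079, 7.797 and 7.490 in WT and 7.999, 7.906, 7.595 and 7.764 in KO. WT replicate 3 was thus the lowest of all 7, and the KO arrays lay within the range of WT. Since one such array was a WT array and a pair were KO arrays, the low values fell in both groups. The pattern was not particular to the members. The mean of the 68 neighbouring genes described below was 7.850 on WT replicate 3, 7.779 on KO replicate 3 and 7.997 on KO replicate 4, against 8.099 to 8.269 elsewhere.

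**Figure D2:**
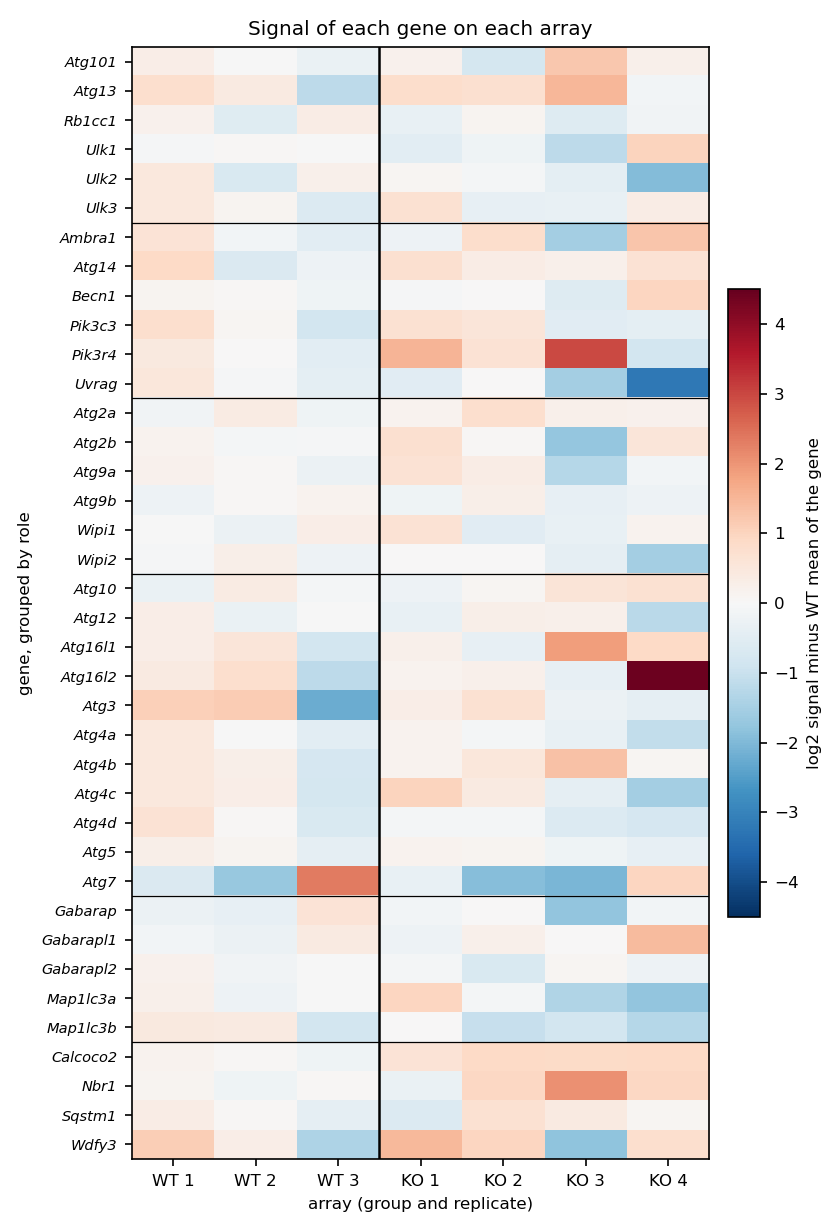
Log2 signal of each of the 38 genes (rows, grouped by role) on each of the 7 arrays (columns), minus the gene's WT mean, with red above and blue below it. The deepest colours lie on single arrays, such as Atg16l2 and Uvrag on KO replicate 4 and Pik3r4 on KO replicate 3, and Calcoco2 is red on all 4 KO arrays.

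In the ULK complex, which starts autophagy and is a direct target of mTORC1, 3 of 6 genes were above WT and 3 below, with a median difference of -0.06 and a range from -0.60 to 0.72. Ulk1, the main initiating kinase, was 7.36, 7.47 and 7.41 in WT and 6.95, 7.21, 6.24 and 8.41 in KO, a difference of -0.21 (95% interval -1.30 to 0.89). The WT values lay within 0.11 of each other, and the KO values fell on both sides of them. Ulk1 was lower in KO within the 3 same-numbered pairs (differences -0.41, -0.26 and -1.16), and with the replicate number as a block the difference was -0.61 (unadjusted p = 0.0842 in limma). KO replicate 4, the array with the highest Ulk1 signal, has no partner and carries no weight in the block difference. Ulk2, a close relative, had the lowest difference (-0.60), and Atg13, the subunit that mTORC1 phosphorylates beside ULK1, the highest (0.72). Single arrays carried much of both, as Ulk2 differed by -0.15 without KO replicate 4 and Atg13 by 0.13 without WT replicate 3. With array weights 1 gene of the group was above WT and 5 were below. Rb1cc1, which encodes the scaffold FIP200, differed by -0.24.

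The class III PI3-kinase complexes make the lipid PI3P on the forming membrane. Of their 6 genes 5 were above WT and 1 below, at a median difference of 0.08. The count above WT was 2 without WT replicate 3, and 3 without KO replicate 2, without KO replicate 4 or with the replicate block. Becn1, which encodes the core subunit Beclin 1, was 5.92, 5.87 and 5.63 in WT and 5.74, 5.82, 5.23 and 6.78 in KO (difference 0.09, interval -0.76 to 0.93). The values overlapped, with KO replicate 4 above and KO replicate 3 below all of WT. Atg14, which directs the complex to autophagosomes, differed by 0.49, by 0.94 without WT replicate 1 (unadjusted p = 0.0136 in limma) and by 0.16 without WT replicate 2. The catalytic subunit gene Pik3c3 differed by 0.07.

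Uvrag and Pik3r4 were the extremes of this group, and neither passed the test over all arrays. Uvrag, whose product replaces ATG14 in the complex that acts on endosomes and later steps, was 10.53, 9.95 and 9.59 in WT and 9.52, 10.05, 8.51 and 6.79 in KO (difference -1.30, interval -3.02 to 0.41, unadjusted p = 0.117 in limma). It was lower than all WT values on KO replicates 1, 3 and 4 but not on KO replicate 2. Without KO replicate 2 the difference was -1.75 (unadjusted p = 0.0426 in limma), and over all arrays left out in turn it ran from -1.75 to -0.66, the latter without KO replicate 4. Pik3r4, which encodes the regulatory subunit VPS15, was 6.42, 6.01 and 5.51 in WT and 7.52, 6.62, 8.95 and 5.14 in KO (difference 1.08, interval -0.81 to 2.96, and 0.45 without KO replicate 3). It was higher in KO within all 3 same-numbered pairs, by 1.10, 0.61 and 3.44, while KO replicate 4, which has no partner, was the lowest of the 7 arrays. With the replicate number as a block, 2 members rather than 1 had an unadjusted p below 0.05 in limma, Calcoco2 and Pik3r4 (1.72). KO replicate 4 carries no weight in that difference, and leaving the array out also gave 1.72 for Pik3r4.

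ATG9 vesicles and the lipid transfer proteins that enlarge the membrane showed small differences. Of 6 genes, 1 was above WT and 5 below, with a median of -0.11 and a range from -0.48 (Wipi2, which encodes a PI3P-binding protein) to 0.34 (Atg2a, a lipid transfer protein). Atg9a, the broadly expressed scramblase, was 6.94, 6.82 and 6.49 in WT and 7.40, 7.09, 5.45 and 6.62 in KO (difference -0.11, interval -1.17 to 0.96). KO replicates 1 and 2 were above all of WT and KO replicate 3 below. The count of members below WT was not stable, as 5 of the 6 were above WT on WT replicates 1 and 2 against KO replicates 1 and 2, and likewise with array weights. Atg2a and Atg9b were among the dimmest transcript clusters, at percentiles 6.2 and 9.5 of mean signal.

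The conjugation systems attach ATG12 to ATG5 and ATG8 proteins to lipid, and ATG4 proteases prime and release the ATG8 proteins. Of 11 genes 5 were above WT and 6 below, with a median difference of -0.07. This count moved with the arrays kept. On WT replicates 1 and 2 against KO replicates 1 and 2, 2 were above WT, and with array weights 3 were. With the replicate block or without KO replicate 4, 8 were above. Atg5 was 7.23, 7.11 and 6.58 in WT and 7.14, 7.09, 6.77 and 6.62 in KO (difference -0.07, interval -0.66 to 0.51), so that all KO values lay within the WT range. Atg7, which encodes the activating enzyme shared by both systems, was 7.15, 6.10 and 10.11 in WT and 7.45, 5.87, 5.74 and 8.76 in KO (difference -0.83, interval -3.36 to 1.70). The high values of both groups were on arrays that stood apart. Atg3, which encodes the enzyme that hands ATG8 proteins to lipid, was 12.83, 12.93 and 9.55 in WT and 12.08, 12.46, 11.49 and 11.38 in KO. Its difference was 0.09 over all arrays and -1.02 without WT replicate 3 (unadjusted p = 0.0273 in limma).

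Atg16l2, which encodes a relative of the ATG16L1 scaffold, had the highest difference of all members through 1 array. It was 8.06, 8.40 and 6.46 in WT and 7.81, 7.87, 7.27 and 12.05 in KO (difference 1.11, interval -1.59 to 3.80), and the difference was 0.01 without KO replicate 4. Atg16l1 itself differed by 0.66, and by 0.24 without WT replicate 3. Among the proteases Atg4b, the main ATG8-processing enzyme, differed by 0.51, and by 0.14 without WT replicate 3. Atg16l1 and Atg4b were both below WT on WT replicates 1 and 2 against KO replicates 1 and 2. Atg4d differed by -0.38, and by -0.06 without WT replicate 1.

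The row named Atg4a is uncertain. Its transcript cluster identifier carries chromosome 3, while RefSeq (GRCm38.p6) places Atg4a on chromosome X and lists the pseudogene Atg4a-ps on chromosome 3. For 19499 of the 19565 named transcript clusters (99.66%) the identifier's chromosome equals that of the gene, and Atg4a was the 1 member of 38 for which it did not. Without it 37 members remained, with a median difference of 0.07, 18 of them below WT, and Calcoco2 again the only one with an unadjusted p below 0.05 or without overlap.

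The ATG8 family coats the autophagosome and is consumed with it. Of its 5 genes 4 were below WT and 1 was above, with a median difference of -0.51, and none had an unadjusted p below 0.05. Map1lc3b, the gene of the commonly tracked LC3B protein, was 11.43, 11.42 and 10.17 in WT and 11.01, 9.98, 10.17 and 9.73 in KO (difference -0.78, interval -1.78 to 0.21, unadjusted p = 0.106 in limma). All KO values were below WT replicates 1 and 2, while WT replicate 3 lay among them. The difference was -1.20 without WT replicate 3 (unadjusted p = 0.0177 in limma), -1.05 without KO replicate 1 (unadjusted p = 0.0367 in limma) and -0.96 with array weights (unadjusted p = 0.0292 in limma). It was -0.57 without WT replicate 1 (unadjusted p = 0.289 in limma), -0.58 without WT replicate 2 (unadjusted p = 0.286 in limma) and -0.62 with the replicate block (unadjusted p = 0.138 in limma).

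Map1lc3a was 6.92, 6.47 and 6.66 in WT and 7.63, 6.59, 5.35 and 4.90 in KO (difference -0.56, interval -2.03 to 0.90), with KO replicate 1 above and KO replicates 3 and 4 below all of WT. Gabarap was 13.94, 13.80 and 14.81 in WT and 14.04, 14.22, 12.39 and 14.05 in KO (difference -0.51, interval -1.67 to 0.66). KO replicate 3 alone was below the WT values. Gabarapl2, whose product GATE-16 also serves Golgi transport, was 10.80, 10.46 and 10.60 in WT and 10.52, 9.94, 10.70 and 10.40 in KO (difference -0.23, interval -0.80 to 0.34). Gabarapl1 was 11.10, 10.95 and 11.61 in WT and 10.99, 11.44, 11.22 and 12.65 in KO (difference 0.36, interval -0.62 to 1.33). Both overlapped between the groups, with KO replicates 2 and 4 of Gabarapl2 below and KO replicate 4 of Gabarapl1 above all of WT. On WT replicates 1 and 2 against KO replicates 1 and 2, 2 of the 5 genes were below WT and the median was 0.19, so the family's count below WT was not kept without the arrays that stood apart.

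The receptors, which select cargo, were the 1 role group with every measured member above WT, 4 of 4, with a median difference of 0.57. The count was 4 under each scaling tried. It fell to 2 without WT replicate 3 (Sqstm1 and Wdfy3 were then below WT), to 3 without KO replicate 1 (Wdfy3 below) and to 3 without KO replicate 2 or on WT replicates 1 and 2 against KO replicates 1 and 2 (Sqstm1 below).

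Calcoco2, known in human cells as the receptor NDP52 for bacteria and damaged mitochondria, was 4.38, 4.29 and 4.04 in WT and 4.85, 5.14, 5.09 and 5.13 in KO. All KO values exceeded all WT values. The difference was 0.81 (interval 0.35 to 1.28), or 1.76-fold, with an unadjusted p of 0.0038 in limma that did not pass adjustment over the array. It was positive within the 3 same-numbered pairs, at 0.47, 0.85 and 1.04, and its p was below 0.05 in all 18 alternatives that kept the gene, from 0.000891 to 0.0419, with differences from 0.66 to 0.89. These are not independent. The mean of all rows of a symbol repeats the main fit, as each member has 1 row. The replicate block and leaving out KO replicate 4 share the difference of 0.79. Its within-group SD of 0.151 was the lowest of the members. The signal was dim, at percentile 30.6 of all transcript clusters, and signal over background was not known for it.

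**Figure D3:**
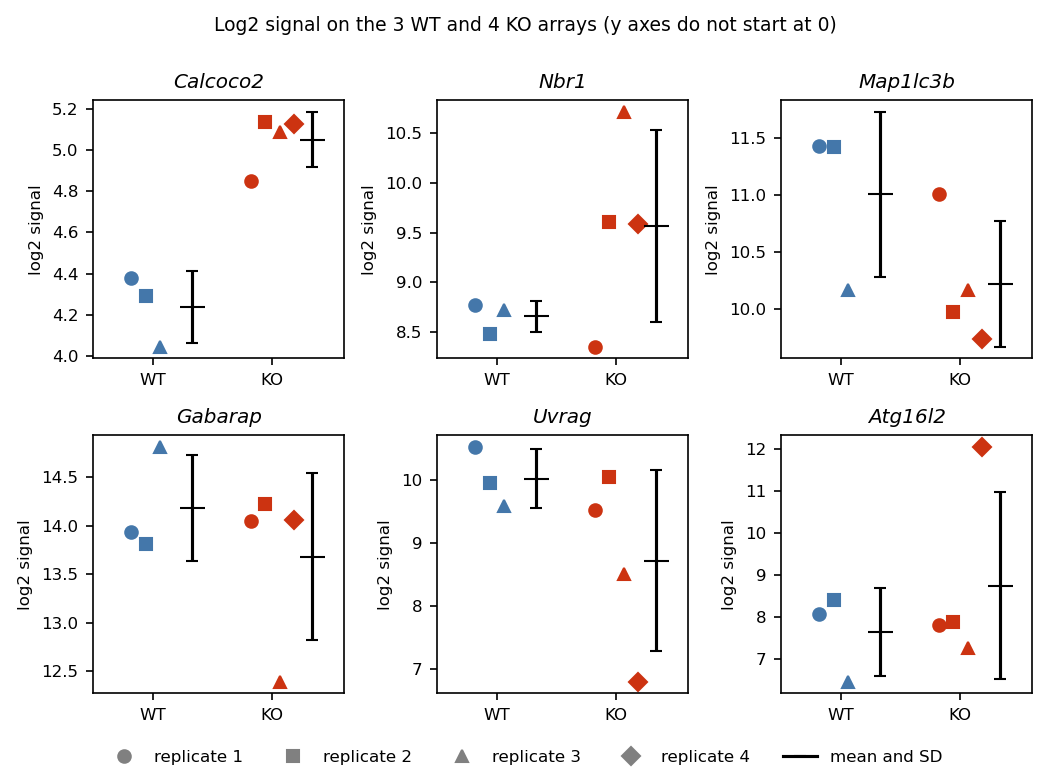
Log2 signal (y axes, which do not start at 0) of Calcoco2, Nbr1, Map1lc3b, Gabarap, Uvrag and Atg16l2 on the 3 WT and 4 KO arrays, with symbols for replicate numbers and a bar for mean and SD. Only for Calcoco2 do the KO values, 4.85 to 5.14, all lie above the WT values, 4.04 to 4.38.

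Nbr1, a receptor for ubiquitinated cargo and peroxisomes, was 8.77, 8.48 and 8.72 in WT and 8.35, 9.60, 10.72 and 9.59 in KO (difference 0.91, interval -0.26 to 2.08, unadjusted p = 0.109 in limma). KO replicates 2 to 4 were above all of WT and KO replicate 1 was below, and without that array the difference was 1.31 (unadjusted p = 0.00979 in limma). It was 0.53 without KO replicate 3 (unadjusted p = 0.214 in limma) and 0.35 on WT replicates 1 and 2 against KO replicates 1 and 2 (unadjusted p = 0.461 in limma). Sqstm1, the gene of p62, was 12.41, 12.13 and 11.68 in WT and 11.44, 12.77, 12.46 and 12.16 in KO (difference 0.14, interval -0.69 to 0.96). Its KO values lay on both sides of WT. Wdfy3, which encodes the adaptor ALFY for protein aggregates, was 9.07, 8.28 and 6.57 in WT and 9.42, 8.93, 6.16 and 8.72 in KO (difference 0.33, interval -1.73 to 2.39), and in both groups replicate 3 was low.

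The sign of many differences rested on single arrays. Of the 38 members 17 changed sign when 1 array was left out and 21 kept it. On WT replicates 1 and 2 against KO replicates 1 and 2, 19 of the 38 had the other sign, among them 7 of the 13 whose difference over all arrays was more than 0.5 in size. On these 4 arrays 11 of the 38 members did not overlap, against 28.1% of all transcript clusters. The acinar marker score as a covariate turned the sign of 3 members.

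**Figure D4:**
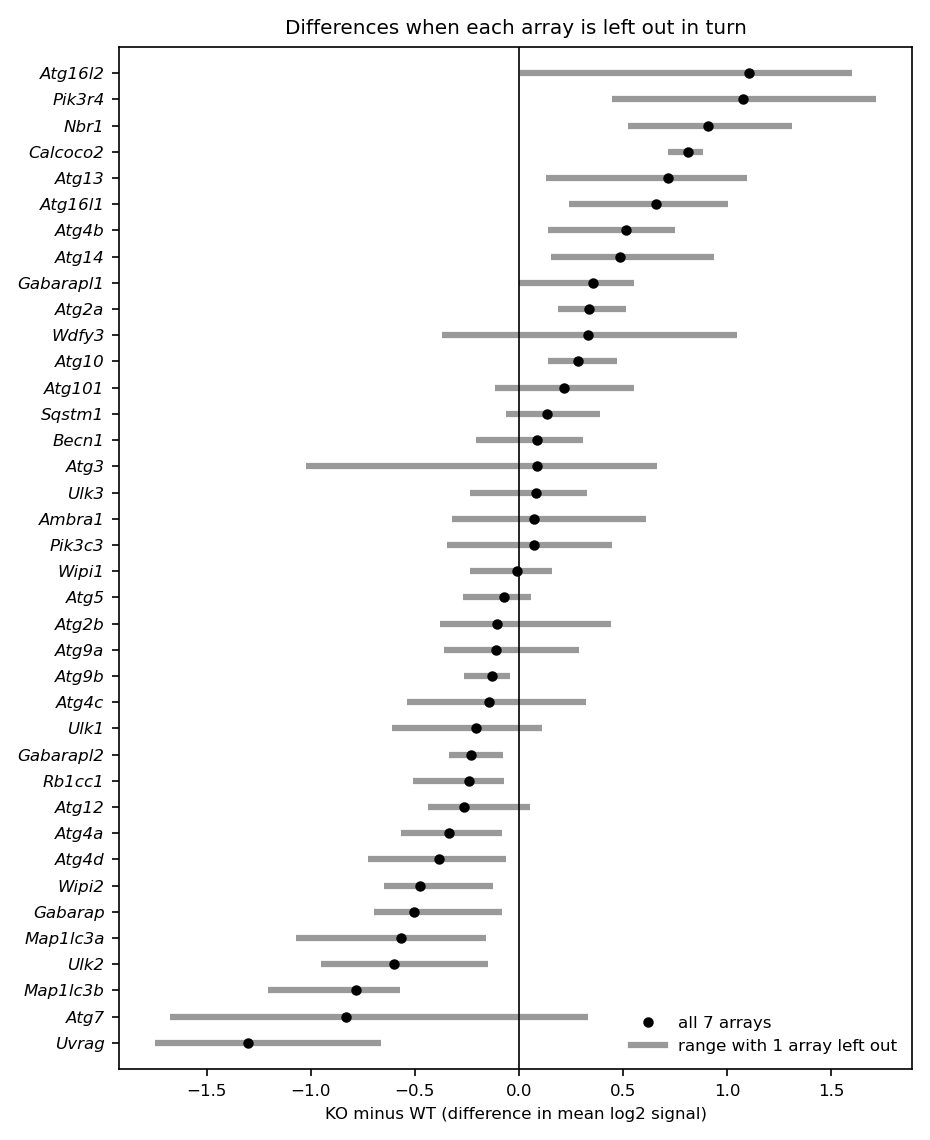
KO minus WT difference in mean log2 signal (x axis) of each member with all 7 arrays (points) and the range when each array is left out in turn (bars). The bar of Calcoco2 runs from 0.72 to 0.89, that of Atg16l2 from 0.01 upwards, and those of 17 genes cross 0.

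Genes around the core pathway were followed in 5 lists, with 68 genes measured in all. Of these, 29 were above WT and 39 below, with a median difference of -0.05, and 1 of the 68 had an unadjusted p below 0.05, on the higher side, where 1.01% of all transcript clusters passed. That gene was Ccpg1, a receptor that sends endoplasmic reticulum to autophagy and is induced by stress of that organelle. It was 11.47, 11.16 and 11.02 in WT and 11.52, 11.74, 12.46 and 11.86 in KO. All KO values were above all WT values, (difference 0.68, interval 0.03 to 1.32, unadjusted p = 0.0415 in limma). The call was lost with the values as deposited (unadjusted p = 0.0539 in limma) and with the replicate number as a block (unadjusted p = 0.0986 in limma). It was also lost without WT replicate 2 or 3 or KO replicate 2, 3 or 4, at unadjusted p from 0.0569 to 0.117 in limma. On WT replicates 1 and 2 against KO replicates 1 and 2 the difference was 0.32 (unadjusted p = 0.278 in limma). The organelle-selective receptors as a list, with 18 genes measured, were above WT for 9 genes and below for 9.

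Other initiation and membrane factors, 16 of 17 measured, were above WT for 3 genes and below for 13, at a median difference of -0.23. Some of those below were close to no difference, such as Sh3glb1 (-0.007), Rubcn (-0.01) and Nrbf2 (-0.022). The mean of the list was 8.345, 8.125 and 8.137 in WT and 8.039, 8.438, 7.196 and 8.005 in KO. KO replicate 3 was thus the lowest array and KO replicate 2 the highest, so the count is no even shift of the KO arrays. The smallest p values there belonged to Rubcnl, which encodes Pacer, a Beclin 1 partner (-0.57, unadjusted p = 0.0726 in limma), and Ei24, an endoplasmic reticulum protein needed for autophagy (-1.32, unadjusted p = 0.132 in limma). Rubcnl differed by -0.39 without WT replicate 2. Ei24 was 12.01, 11.61 and 12.12 in WT and 11.43, 11.77, 10.86 and 8.33 in KO, and the difference was -0.56 without KO replicate 4. Of 8 AMPK genes, which code for the energy-sensing kinase that activates ULK1 and for its activator Stk11, 1 was above WT and 7 below, led by the subunits Prkag2 (-1.04, unadjusted p = 0.0537 in limma) and Prkab2 (-1.49, unadjusted p = 0.285 in limma). None of these passed the test over all arrays. With 1 array left out, Prkag2 ran from -1.31 (without KO replicate 1) to -0.78 (without KO replicate 4), and Prkab2 from -2.55 (without KO replicate 2) to -0.63 (without KO replicate 3). The p passed unadjusted for Prkag2 without KO replicate 1 or 2, for Prkab2 without KO replicate 2 and for Rubcnl without WT replicate 3.

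Genes of autophagosome-lysosome fusion were above WT for 10 of 15, at a median difference of 0.11. The tethering subunit Vps11 differed by 0.65 (unadjusted p = 0.124 in limma) and the SNARE gene Snap29 by 0.82 (unadjusted p = 0.237 in limma). Single arrays carried both, as Vps11 differed by 0.32 without KO replicate 4 and Snap29 by 0.24 without WT replicate 3. In a list of 11 genes, the TFEB family, other autophagy transcription factors and Flcn, Fnip1 and Fnip2, 6 were above WT and 5 below. Flcn, Fnip1 and Fnip2 do not encode transcription factors, and each was below WT (-0.19, -0.23 and -0.41). The others below were Tfeb and Zkscan3. Tfeb was 7.69, 8.06 and 8.18 in WT and 7.23, 7.72, 7.83 and 7.62 in KO (difference -0.37, unadjusted p = 0.157 in limma), with values that overlapped. It was lower in KO within the 3 same-numbered pairs (differences -0.45, -0.33 and -0.35), and the replicate block gave -0.38 (unadjusted p = 0.149 in limma). Its relative Tfec differed by 0.37 (unadjusted p = 0.212 in limma), and by 0.17 without KO replicate 4.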

How the data were processed

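The authors deposited 1 log2 value per transcript cluster and array. Affymetrix Expression Console and MAS5 appear in the submitters' processing notes, and GeneSpring in the methods. Which of these made the values, how background was corrected and probes summarised, and the genome build are not given in the sources used here. Detection calls were not used here, so dim genes have no known signal over background, and the number of arrays limits the precision. P-values set the difference between groups against the spread between pools of animals of 1 genotype. In limma that spread is moderated over all transcript clusters. Spread between the animals of a pool is not seen.

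Array medians differed by more than 0.1, so the values were quantile normalized. KO and WT were compared in limma 3.58.1 (R 4.3.3), by lmFit with eBayes and a two-sided test without covariates, over all 22198 transcript clusters with Benjamini-Hochberg adjustment. Of these, 19565 carried a gene symbol in the platform annotation and 2633 did not. The fit was tested on simulated data. Alternatives were other scalings (as deposited, median centring, cyclic loess), filters on dim rows, a trended robust fit, array weights, the methods' t-test, an acinar covariate, a fit on 4 arrays, leaving out each array and, added after seeing the data, leaving out Atg4a and refitting the neighbouring genes named.

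WT and KO arrays share numbers 1 to 3 in their labels. Deviations from the group means correlated at 0.16, 0.243 and 0.165 for equal numbers and at -0.181 to 0.023 for unequal ones. No source states what equal numbers share. A fit with the number as a block, with KO replicate 4 a block of its own, was an alternative. KO replicate 4 then carries no weight in the difference, so the block gives the same differences as leaving that array out.

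The members and lists were chosen with earlier results of these data known. Every array's value is given for members with an unadjusted p below 0.05 or without overlap, the ATG8 family, the receptors, Ulk1, Becn1, Atg5, Atg7, Atg9a and the largest difference in each direction, and for Pik3r4, Atg3 and Tfeb, which were chosen after their values were seen. In neighbouring lists, genes with an unadjusted p below 0.05 or else the 2 with the smallest p are named.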

Additional observations from a re-analysis of the deposited data

Results flagged for a closer look

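In 3 of 39 groups of 4 KO values examined, 1 array lay so far from the rest that its gap to the nearest value, as a share of the group's range, exceeded Dixon's 95% critical value, where chance gives about 1 in 20 (1.95 of 39). For Atg16l2 the gap was 0.873 of the range, as KO replicate 4 was at 12.05 and the others between 7.27 and 7.87. For Atg2a it was 0.92, with KO replicate 2 at 4.26 and the others between 3.65 and 3.70, on a dim scale. For Gabarap it was 0.905, with KO replicate 3 at 12.39 and the others between 14.04 and 14.22.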

How the results depend on the processing

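With limma, 0 transcript clusters passed adjustment in any alternative. The 484 at an unadjusted p below 0.05 became 311 and 177 without rows below the 25th percentile or the median, and 300 to 697 with 1 array left out (300 without WT replicate 3). The number of members with such a p was 2 with array weights, 0 without rows below the median, where Calcoco2 lies, and 1 to 3 with 1 array left out. With the replicate number as a block it was 2, and this block changed no other member's call. The number without overlap was 0 without rows below the median, 11 on the 4 arrays other than WT replicate 3 and KO replicates 3 and 4, where 2 values meet 2 (28.1% of all transcript clusters), and 1 to 4 with 1 array left out. The share over all transcript clusters was not computed with 1 array left out. Smaller groups separate more often, so that last range cannot be read as a result about the members.

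Among the members given in full, the sign turned on these 4 arrays (19 of all 38) for Atg16l2 (-0.39), Atg7 (0.034), Atg9a (0.36), Becn1 (-0.11), Gabarap (0.26), Map1lc3a (0.42) and Sqstm1 (-0.16). Atg3 turned there too, to below WT. It did so as well with array weights, with the acinar covariate, with the values as deposited and with median centring. With array weights (9 of all 38) the sign also turned for Atg9a (0.10) and Becn1 (-0.017), and with the replicate block (7 of all 38) for Atg5 (0.022), Becn1 (-0.21) and Gabarapl1 (-0.001). With 1 array left out the differences ran from -1.025 to 0.665 for Atg3, -0.27 to 0.057 for Atg5, -1.68 to 0.33 for Atg7, -0.36 to 0.29 for Atg9a, -0.21 to 0.31 for Becn1, -0.001 to 0.55 for Gabarapl1, -0.06 to 0.39 for Sqstm1, -0.61 to 0.11 for Ulk1 and -0.37 to 1.05 for Wdfy3. The cause was not tested. The dim signals of Calcoco2, Atg2a and Atg9b limit how their folds can be read.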
